A study of Mus musculus with 6 samples.

Results

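The chemokine genes described here were all genes on the array whose name begins with Ccl, Cxcl, Cx3cl or Xcl followed by a digit, 35 of the 22328 named genes, covered by 47 probes on 56 spots per array. They were measured in cultured mouse embryonic fibroblasts. Of the 35 genes, 23 were well above background (the scanner software's own call for a spot clearly brighter than its surroundings) on at least 1 array, 14 of them on all 6 arrays and 9 on some. The other 12 were well above background on no array and have only an upper bound here: Ccl12, Ccl20, Ccl22, Ccl24, Ccl26, Ccl28, Cxcl2, Cxcl3, Cxcl13, Cxcl15, Cxcl17 and Xcl1. Over all named genes, 74.9% were well above background on at least 1 array. By array, the number of the 35 detected was 20 (wild type mock; 68.2% of all named genes), 16 (wild type transfected; 66.7%), 19 (Clk/Clk mock; 65.3%), 19 (Clk/Clk transfected; 64.5%), 23 (Per2m/m mock; 66.6%) and 16 (Per2m/m transfected; 60.7%).

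Chemokines are small secreted proteins that bind G protein-coupled receptors and draw leukocytes along a gradient. CXC members with an ELR motif, such as Cxcl1 and Cxcl5, act on neutrophils, Cxcl9, Cxcl10 and Cxcl11 act on activated T cells through Cxcr3, and many CC members, such as Ccl2 and Ccl7, act on monocytes. Fibroblasts are known sources of both kinds, and NF-kB and interferon signalling are well studied inducers of their transcription.

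The 6 arrays, each with a single Cy3 channel, held total RNA from fibroblasts of strain ICR, all grown in DMEM with 10% FBS. The genotypes were wild type, Clk/Clk (Clock mutant) and Per2m/m. Each was given a mock treatment or a vector expressing H-Ras, a small GTPase known as an oncogene product, and SV40T, the viral T antigen. The 6 groups were therefore wild type mock, wild type transfected, Clk/Clk mock, Clk/Clk transfected, Per2m/m mock and Per2m/m transfected, with 1 array in each. The source label of the transfected Per2m/m sample names H-Ras alone, while its treatment label names both genes. Nothing in the labels says how many embryos or cultures stand behind a group, how the cells were selected after transfection, or when after it the RNA was taken, so genotype cannot be told apart from the culture it came from.

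Levels are given as log2 of the processed signal less the 75th percentile of its array, so 0 means as bright as that percentile, and a response is the log2 ratio of the transfected over the mock array of 1 genotype. Probes differ in brightness for technical reasons, so a level is compared between arrays for 1 gene and never between genes. No array had a saturated spot, and the 75th percentile of signal lay between 377 and 634. Spots of 1 probe on an array differed by a median SD of 0.05 to 0.06 (log2), which covers technical error only. The transfected Per2m/m array stood apart before any chemokine was looked at: its correlation with the other arrays was 0.852 to 0.890, while the other 5 had medians of 0.931 to 0.945. Xist, transcribed from the inactive X, and the Y-linked Ddx3y stood at −0.53 and −0.05 on the mock Per2m/m array, and neither they nor the Y-linked Eif2s3y and Uty were well above background on the transfected one. Both were detected on both wild type arrays, and on the Clk/Clk arrays Ddx3y was and Xist was not. Thy1, a fibroblast surface protein, was at −0.65 on the transfected Per2m/m array and between 3.53 and 7.78 on the others. Of 12 fibroblast markers, 10 to 12 were well above background on every array (60.7% to 68.2% of all named genes), but the marker levels were not stable. By measured values, on transfection 1 was at least 2-fold higher and 5 lower for wild type, 1 and 1 for Clk/Clk, and 0 and 7 for Per2m/m. The shares of all genes were 7.51% and 11.8%, 3.74% and 4.12%, and 18.7% and 20.8%. Each response of Per2m/m below, and each transfected Per2m/m against wild type difference, rests on that array, while the mock comparisons and those of the other genotypes do not use it.

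Promoter sequence is given for some of the genes, and 24 of the 35 genes were matched to RefSeq promoters of GRCm38.p6, taken here as the 250 bases before the start. Ccl2, Ccl4, Ccl5, Ccl7, Ccl11, Ccl24, Ccl26, Cxcl5, Cxcl11, Cxcl16 and Cxcl17 had no entry. Both strands were searched for 2 spellings of the NF-kB site, which can overlap each other (GGG, any 2 bases, then TTTCC; or GGGA, any 2 bases, then TTCC), for the interferon-response spelling (GAAA, any 2 bases, then GAAA) and for the AP-1 spelling (TGA, any base, then TCA). The first spelling was in 5 of the 24 genes and in 1.412% of all 32851 promoters, the second in 5 and 1.208%, and either in 7 (Ccl1, Ccl9, Ccl20, Cxcl1, Cxcl2, Cxcl3 and Cxcl10) and 2.262%. The interferon-response spelling was in 3 genes (Ccl19, Cxcl10 and Cxcl14) against 2.977% of all promoters, and the AP-1 spelling in 3 (Ccl9, Ccl27a and Cxcl10) against 6.749%. The promoters of Cxcl1 and Cxcl10 are shown because both genes were higher on the Clk/Clk arrays, that of Ccl9 because its response ran in opposite directions in Clk/Clk and Per2m/m cells, and that of Cxcl12 because its level set the transfected Per2m/m array apart. They lie at chr5:90890995-90891244 (plus strand), chr5:92348890-92349139 (minus strand), chr11:83578637-83578886 (minus strand) and chr6:117168285-117168534 (plus strand), and capitals mark the matched letters.
Cxcl1: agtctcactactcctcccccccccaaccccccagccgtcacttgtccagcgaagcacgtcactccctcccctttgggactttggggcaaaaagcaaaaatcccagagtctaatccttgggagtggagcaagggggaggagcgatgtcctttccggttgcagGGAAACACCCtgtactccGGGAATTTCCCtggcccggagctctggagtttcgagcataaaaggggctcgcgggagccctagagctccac
Cxcl10: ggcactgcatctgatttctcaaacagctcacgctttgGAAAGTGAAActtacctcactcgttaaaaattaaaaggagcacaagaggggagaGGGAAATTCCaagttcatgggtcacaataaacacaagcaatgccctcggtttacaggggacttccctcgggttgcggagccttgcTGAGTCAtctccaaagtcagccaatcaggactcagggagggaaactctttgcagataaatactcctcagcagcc
Ccl9: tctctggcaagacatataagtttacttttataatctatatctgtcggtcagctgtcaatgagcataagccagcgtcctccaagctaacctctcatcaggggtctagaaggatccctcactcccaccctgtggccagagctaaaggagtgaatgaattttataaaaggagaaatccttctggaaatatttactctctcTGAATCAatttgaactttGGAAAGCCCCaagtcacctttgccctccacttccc
Cxcl12: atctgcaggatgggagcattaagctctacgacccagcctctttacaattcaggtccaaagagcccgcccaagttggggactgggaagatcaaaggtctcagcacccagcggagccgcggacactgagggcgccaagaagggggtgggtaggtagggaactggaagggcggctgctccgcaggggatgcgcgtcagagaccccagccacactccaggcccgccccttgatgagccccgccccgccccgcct
In Cxcl1 the capitals hold NF-kB spellings that begin 89 and 71 bases before the start. Cxcl10 holds the interferon-response spelling at 213, an NF-kB spelling at 159 and the AP-1 spelling at 74 bases. Ccl9 holds the AP-1 spelling at 53 and an NF-kB spelling at 35 bases, and Cxcl12 none of the 4. A match of letters is not a binding site, and no binding was measured.

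**Figure D1:**
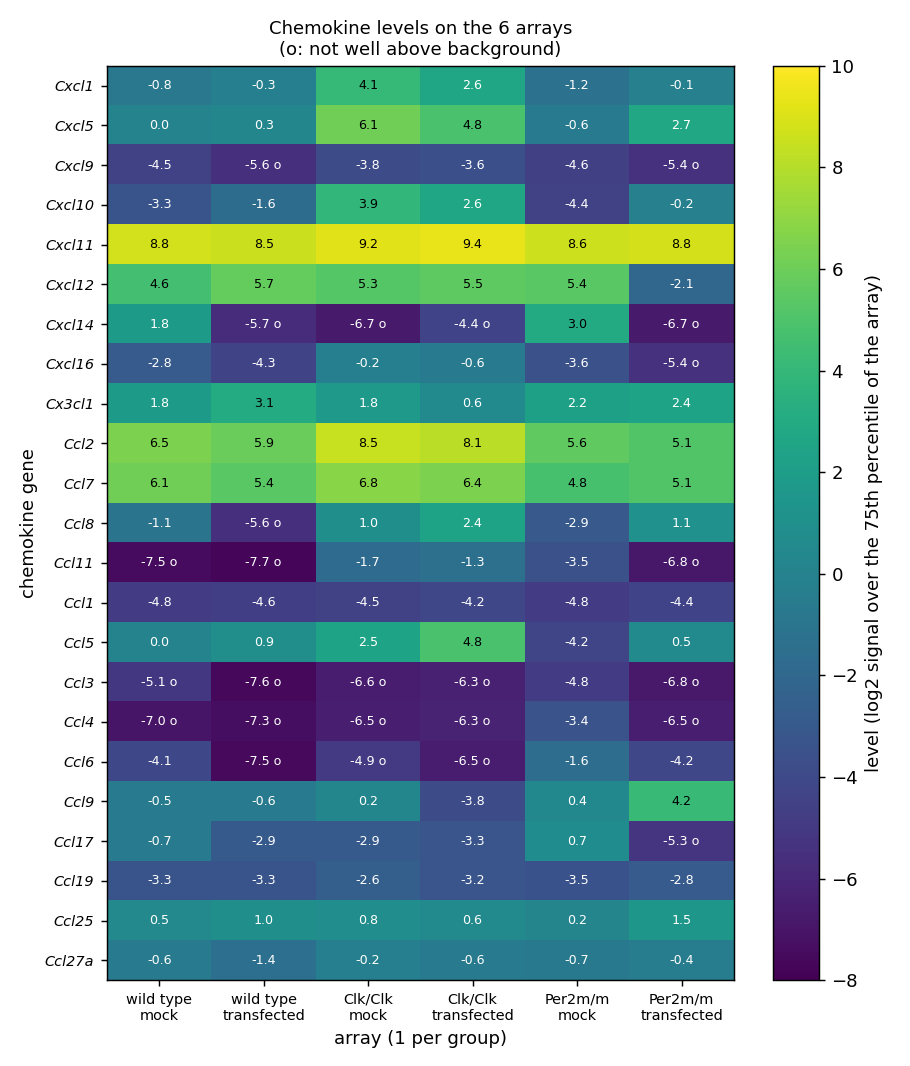
Heat map of the level (log2 of the signal over the 75th percentile of the array) of the 23 chemokine genes well above background on at least 1 array, 1 column for each of the 6 arrays; o marks a value not well above background. Colours compare arrays within a row; Cxcl5, Cxcl10 and Ccl2 are brightest in the Clk/Clk columns and Cxcl12 is dimmest on the transfected Per2m/m array.

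The neutrophil chemokines Cxcl1 and Cxcl5 were brightest on the Clk/Clk arrays. Cxcl5 stood at 0.04 for wild type, 6.12 for Clk/Clk and −0.57 for Per2m/m mock cells. In transfected cells it stood at 0.27, 4.80 and 2.73. The Clk/Clk arrays were thus above the other 4 arrays, by a difference to wild type of 6.08 (log2) in mock and 4.53 in transfected cells, or 67.8-fold and 23.1-fold. Its response was 0.23 for wild type, −1.32 for Clk/Clk and 3.30 for Per2m/m cells. Cxcl1 had mock levels of −0.76, 4.07 and −1.25 and transfected levels of −0.26, 2.61 and −0.13 for cells of wild type, of Clk/Clk and of Per2m/m. It too was above all others on the 2 Clk/Clk arrays, with differences to wild type of 4.84 and 2.87, and its responses were 0.50, −1.46 and 1.12. Their probes lie in 1 cluster on chromosome 5, at chr5:91190490-91190549 (Cxcl5) and chr5:91321845-91321904 (Cxcl1) in mm9. The probes of Cxcl2, Cxcl3 and Cxcl15, from the same cluster, were not well above background anywhere.

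The ligands of Cxcr3 lie together further along chromosome 5, and Cxcl10 followed the same order of genotypes. Its mock levels were −3.35 for wild type, 3.90 for Clk/Clk and −4.43 for Per2m/m cells, and its transfected levels −1.65, 2.62 and −0.18. Between mock cells of Clk/Clk and wild type this was a difference of 7.25 (152-fold), and between transfected cells 4.26 (19.2-fold). The response was 1.70 for wild type, −1.28 for Clk/Clk and 4.25 for Per2m/m cells, so that transfected cells differed less between genotypes than mock cells did. A second, dimmer Cxcl10 probe was well above background only on the mock Clk/Clk array, the array on which the first was brightest. Cxcl9 was close to background, at −4.49, −3.82 and −4.61 in mock cells and −3.61 in transfected Clk/Clk cells. In transfected wild type and Per2m/m cells it was not well above background, and transfected Clk/Clk cells were at least 3.63-fold above wild type. A bound of this kind sets the dim array at the lowest level that any well-measured probe reached there, or at the probe's own level where that was higher. The second Cxcl9 probe was well above background on no array, so the Cxcl9 values rest on 1 probe.

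Cxcl11, the third ligand of Cxcr3, varied little, at 8.78 for wild type, 9.20 for Clk/Clk and 8.63 for Per2m/m mock cells and 8.54, 9.38 and 8.83 in transfected cells. Those values come from its brighter probe, at chr5:92788567-92788626 (mm9), which holds a run of letters that is not particular to the gene. In all, 22 of the 32851 promoters of the reference and 7 probes of other genes share at least 20 bases with it, and the run shared by 15 of those promoters, from base 25 of the probe, is shown because it limits what that probe reads.
Cxcl11 probe: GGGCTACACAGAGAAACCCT
No other chemokine probe shared 20 bases with more than 1 such promoter. The second Cxcl11 probe stood at 3.00, 3.98 and 2.71 in mock and 2.90, 4.15 and 3.07 in transfected cells. Both probes gave responses under 2-fold in every genotype, and both were highest on the Clk/Clk arrays.

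Among the monocyte chemokines of the chromosome 11 cluster, Ccl2 (probe chr11:81850650-81850709, mm9) was measured by 10 spots per array, which differed by an SD of 0.03 to 0.08. It stood at 6.45 for wild type, 8.48 for Clk/Clk and 5.61 for Per2m/m mock cells, and at 5.86, 8.11 and 5.08 in transfected cells. The order of the genotypes was the same with and without the vector, with Clk/Clk 2.03 and 2.25 above and Per2m/m 0.85 and 0.78 below wild type. The spread of spots is technical error only, and the spread between cultures of a genotype was not measured. Its responses of −0.59, −0.37 and −0.53 ran the same way in all 3 genotypes and stayed under 2-fold. Ccl7, the neighbouring monocyte attractant, stood at 6.07, 6.78 and 4.79 in mock and 5.38, 6.45 and 5.08 in transfected cells. Clk/Clk was above wild type here as well, by 0.71 and 1.07, and the responses were −0.70, −0.33 and 0.29.

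Ccl8, another monocyte attractant of this cluster, was among the members whose genotypes lay furthest apart after transfection. Mock cells had levels of −1.09 for wild type, 0.96 for Clk/Clk and −2.95 for Per2m/m. In transfected wild type cells Ccl8 was not well above background, at least 20.8-fold below the mock array, while transfected Clk/Clk cells stood at 2.43 and transfected Per2m/m cells at 1.08, responses of 1.48 and 4.03. Transfected cells of Clk/Clk and Per2m/m were therefore at least 239-fold and 93.6-fold above wild type. Ccl11, the eosinophil attractant eotaxin, was detected on both Clk/Clk arrays, at −1.71 and −1.33, and in mock Per2m/m cells, at −3.54, but nowhere else. Its Clk/Clk levels were at least 11.7-fold (mock) and 17.6-fold (transfected) above wild type, and the transfected Per2m/m array was at least 2.07-fold below the mock one. Ccl1, from the end of the cluster, lay between −4.83 and −4.20 on all arrays, and its second probe was dim on all of them.

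A second group on chromosome 11 holds Ccl5, Ccl9, Ccl6, Ccl3 and Ccl4. Ccl5, which acts on T cells and monocytes, was higher on the transfected array in each genotype: 0.02 and 0.86 for wild type, 2.45 and 4.83 for Clk/Clk, and −4.24 and 0.54 for Per2m/m mock and transfected cells. The responses of 0.85, 2.38 and 4.78 share a direction and differ in size, the last being 27.6-fold. Mock Per2m/m cells had the lowest Ccl5 of all, 4.26 below wild type, and after transfection the 2 genotypes differed by 0.32. Ccl9, a ligand of Ccr1, showed opposite responses: −0.54 and −0.56 for wild type, 0.24 and −3.79 for Clk/Clk, and 0.39 and 4.20 for Per2m/m mock and transfected cells. These are responses of −0.02, −4.03 and 3.81, of which the first changed sign with the scaling. Mock cells of the 3 genotypes lay within 0.92 of wild type for Ccl9, and transfected cells spread over a range from −3.79 to 4.20.

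Ccl6, Ccl3 and Ccl4 were near or below the detection limit on most arrays, and all were brightest on the mock Per2m/m array. Ccl6, also a Ccr1 ligand, was at −4.07 in wild type and −1.57 in Per2m/m mock cells and at −4.16 in transfected Per2m/m cells, and was not well above background on the other arrays. It was at least 2.64-fold lower in transfected than in mock wild type cells, and its log2 response was −2.60 in Per2m/m. Ccl4, which attracts monocytes and T cells, was detected on the mock Per2m/m array alone, at −3.41, at least 3.60-fold above mock wild type and 2.27-fold above transfected Per2m/m cells. Ccl3, its relative, was also detected there alone, at −4.77, at least 1.23-fold above mock wild type and too close to background for a bound on its response.

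Of the chemokines known for steady production by stroma, Cxcl12, the ligand of Cxcr4, gave the widest response measured on both arrays of a genotype. It stood at 4.61 for wild type, 5.26 for Clk/Clk and 5.40 for Per2m/m mock cells. In transfected cells it stood at 5.71, 5.54 and −2.06. The first 5 of these values lie within 1.10 of each other and the last is far below, a response of −7.46 (176-fold lower) in Per2m/m against 1.10 and 0.28 in the other genotypes. A second Cxcl12 probe, at chr6:117125026-117125085 (mm9), gave −6.63, 1.06 and 0.29. Cxcl14, an epithelial and stromal chemokine, was detected in mock wild type and mock Per2m/m cells, at 1.78 and 3.03, and on no other array. It was at least 152-fold and 197-fold lower in transfected cells of these genotypes, and mock Clk/Clk cells were at least 84.6-fold below mock wild type.

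Cxcl16 and Cx3cl1 are made as membrane-bound proteins that proteases can release. Cxcl16, the ligand of Cxcr6, was at −2.85, −0.22 and −3.56 across wild type, Clk/Clk and Per2m/m mock cells and at −4.30 and −0.60 in transfected wild type and Clk/Clk cells. It was not well above background in transfected Per2m/m cells, at least 2.05-fold below the mock. Both Clk/Clk arrays were above the others, by 2.63 and 3.70 over wild type, and every response was negative. Cx3cl1, the ligand of Cx3cr1, stood at 1.80, 1.75 and 2.22 in mock and 3.09, 0.55 and 2.45 in transfected cells. Mock genotypes were close together, and the responses of 1.29 for wild type, −1.20 for Clk/Clk and 0.22 for Per2m/m cells set the transfected arrays 2.53 apart between wild type and Clk/Clk.

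The remaining CC members are known mainly from lymphoid or epithelial tissue. Ccl17, a ligand of Ccr4 on T cells, was at −0.66, −2.90 and 0.74 across wild type, Clk/Clk and Per2m/m mock cells and at −2.87 and −3.28 in transfected wild type and Clk/Clk cells. In transfected Per2m/m cells it was not well above background, at least 40.3-fold below the mock, and the wild type response was −2.21. Ccl25, the thymic and gut ligand of Ccr9, stood at 0.46, 0.81 and 0.21 in mock and 0.98, 0.65 and 1.53 in transfected cells, genotypes in the same order. It lay within a narrow range in mock cells, with responses of 0.52, −0.16 and 1.32, and its other 2 detected probes gave 1.75 and 1.01 in Per2m/m. Ccl27a, a skin chemokine acting on Ccr10, stood at −0.61, −0.24 and −0.71 in mock and −1.42, −0.63 and −0.43 in transfected cells. The arrays were close together on this probe, but its probes disagreed on the Per2m/m response, at 0.27 for the one used and 1.42 and 1.73 for the others. The other probes also put mock Clk/Clk cells (−2.20 and −1.15) below mock wild type (−0.87 and −0.64). They put transfected Per2m/m cells, at 0.80 and 0.97, further above transfected wild type, at −1.22 and −1.21. Ccl19, a ligand of Ccr7, stood at −3.31, −2.58 and −3.49 in mock and −3.31, −3.23 and −2.84 in transfected cells. No response reached 2-fold, and its second detected probe gave −0.97, 0.28 and −0.12 where the first gave 0.00, −0.66 and 0.65.

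**Figure D2:**
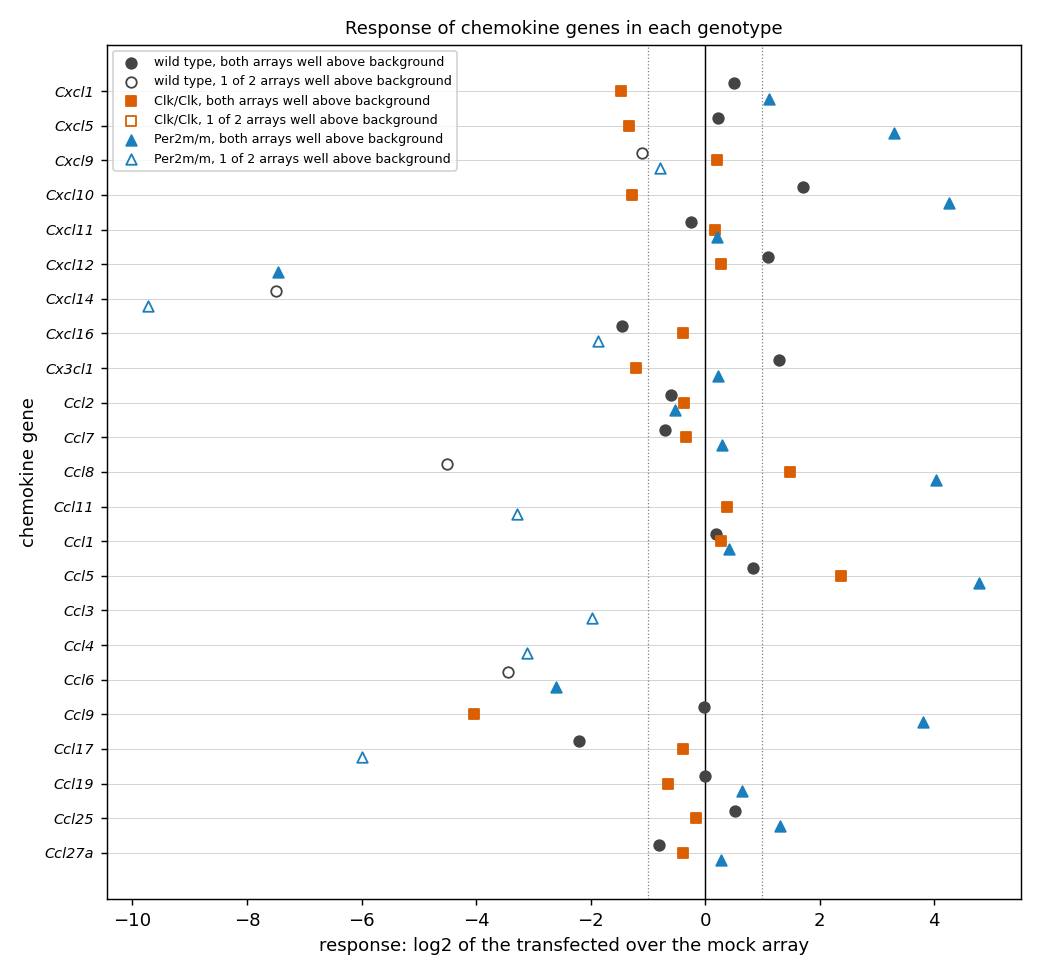
Response (log2 of the transfected over the mock array, x axis) of each of the 23 detected chemokine genes in wild type (circles), Clk/Clk (squares) and Per2m/m cells (triangles); open symbols have 1 of the 2 arrays well above background, pairs dim on both arrays are not drawn, and dotted lines mark 2-fold. Per2m/m points lie on both sides up to −9.72 for Cxcl14 as measured, and the Ccl9, Cxcl10 and Cxcl5 points of Clk/Clk and Per2m/m lie on opposite sides of 0.

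Counted over the 23 detected members, the vector went with no shared direction of the family. By measured values, in wild type cells 3 members were at least 2-fold higher on the transfected array (Cxcl10, Cxcl12 and Cx3cl1) and 6 lower (Ccl6, Ccl8, Ccl17, Cxcl9, Cxcl14 and Cxcl16), against 7.51% and 11.8% of the 16718 genes compared. With each dim array at its bound, 5 were lower, since Cxcl9 has a bound of 1.97-fold. Scaled to the array median, the counts became 4 and 5. Only 2 were higher with quantile normalization or the deposited table, as Cxcl12 had a response of 0.89, and 2 with normexp or the mean of probes, as Cxcl10 had 0.88 and 0.63. Clk/Clk cells had 2 higher (Ccl5 and Ccl8) and 5 lower (Ccl9, Cxcl1, Cxcl5, Cxcl10 and Cx3cl1), against 3.74% and 4.12% of genes. Per2m/m cells had 7 higher (Ccl5, Ccl8, Ccl9, Ccl25, Cxcl1, Cxcl5 and Cxcl10) and 8 lower (Ccl3, Ccl4, Ccl6, Ccl11, Ccl17, Cxcl12, Cxcl14 and Cxcl16), against 18.7% and 20.8% of genes. Ccl3 has no bound there, which leaves 7 lower at the bound. The median response was −0.24 for wild type, −0.33 for Clk/Clk and 0.22 for Per2m/m cells, where all genes had 0.00, 0.02 and 0.12. A member detected through 1 bright array alone had to differ between arrays, so these counts describe the members and support nothing further. Among the 14 members well above background on all 6 arrays, the counts were 3 higher and 0 lower in wild type (6.87% and 6.14% of genes so filtered), 1 and 5 in Clk/Clk (1.78% and 2.17%) and 6 and 1 in Per2m/m (18.9% and 13.8%).

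Between genotypes, Clk/Clk cells held more members above wild type than below it. In mock cells 8 were at least 2-fold higher (Ccl2, Ccl5, Ccl8, Ccl11, Cxcl1, Cxcl5, Cxcl10 and Cxcl16) and 2 lower (Ccl17 and Cxcl14), against 10.1% and 10.7% of all genes. In transfected cells 10 were higher and 2 lower (Ccl9 and Cx3cl1), against 13.2% and 11.1%. All 8 of the mock members were also among the 10, which adds Ccl7 and Cxcl9, so the shared members are 100% of the first list and 80% of the second. Over all genes 1686 and 2214 were higher, and the 931 shared are 55.2% and 42.1%. The 4 arrays of this pair of comparisons are all different, though the 2 arrays of a genotype may come from 1 stock of cells. The median of the 23 members was 0.67 in mock and 1.07 in transfected cells, where all genes had −0.07 and −0.12. With detection on all 6 arrays, 5 of 14 members were higher and 0 lower in mock cells (6.85% and 7.43% of genes), and 6 were higher and 2 lower in transfected cells (8.4% and 10% of genes).

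Per2m/m against wild type gave a mixed picture. Mock cells had 5 members at least 2-fold higher (Ccl4, Ccl6, Ccl11, Ccl17 and Cxcl14) and 4 lower (Ccl5, Ccl7, Ccl8 and Cxcl10), against 4.41% and 4.32% of genes, with member and all-gene medians of −0.13 and 0.03. Among the 14 members detected on all arrays, 0 were higher and 3 lower (1.43% and 1.79% of genes). Transfected cells had 5 higher (Ccl6, Ccl8, Ccl9, Cxcl5 and Cxcl10) and 3 lower (Ccl17, Cxcl12 and Cxcl16), against 14.7% and 16.2%, with medians of 0.29 and 0.09. Cxcl16 has a bound of only 1.22-fold there, which leaves 2 lower at the bound. The comparisons of both mutants share the wild type arrays.

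**Figure D3:**
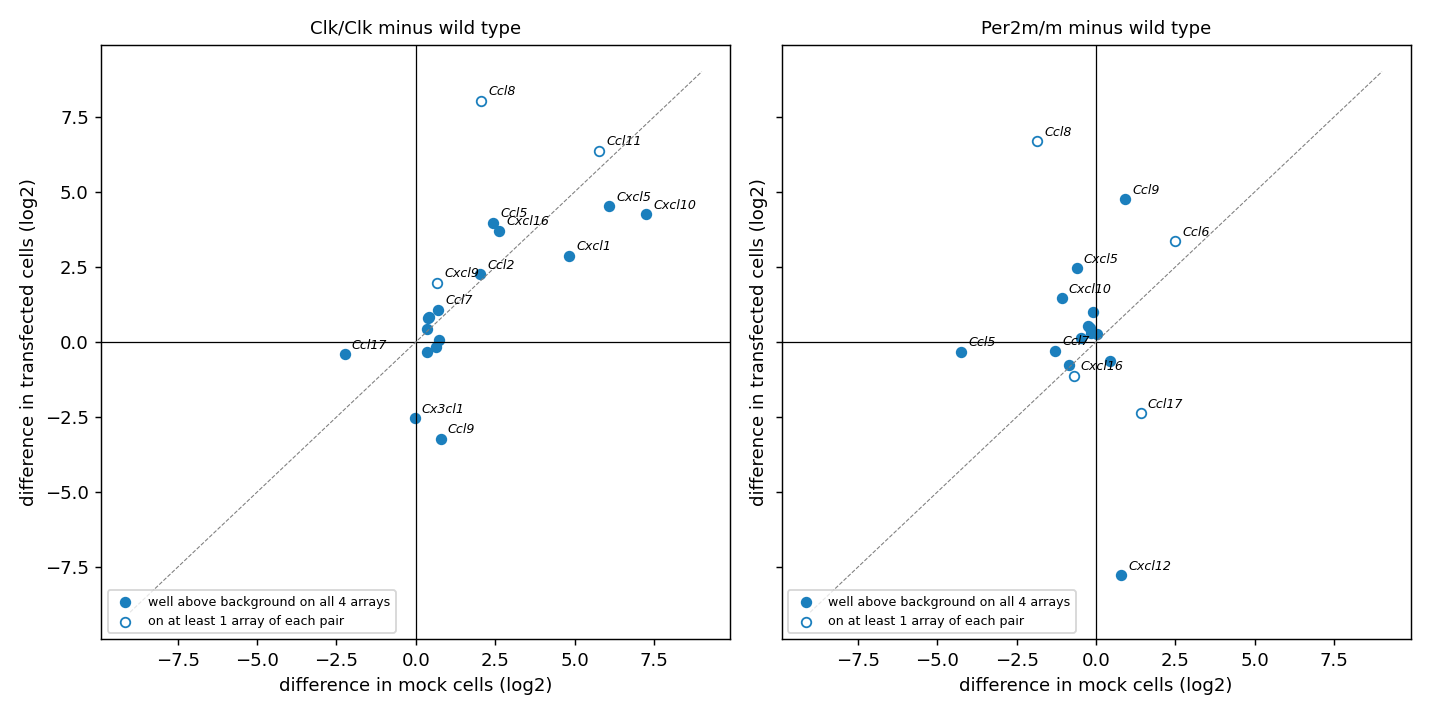
Difference to wild type (log2) of the detected chemokine genes in mock cells (x axis) and in transfected cells (y axis), for Clk/Clk (left) and Per2m/m (right); open circles have at least 1 dim array, the dashed line marks equal differences, and genes dim on both arrays of a pair are not drawn. Ccl2, Ccl5, Cxcl1, Cxcl5, Cxcl10 and Cxcl16 lie up and to the right in the left panel; in the right panel Ccl5 is low in mock cells alone and Cxcl12 in transfected cells alone.

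A limma model with a term for each mutant genotype and 1 for transfection, fitted over all 16718 genes, tested what the arrays share. It leaves 2 residual degrees of freedom, takes the spread from the disagreement between genotypes, and its p-values measure only the spread between these 6 samples. With Benjamini-Hochberg adjustment, 0 of 23 members and 0 of all genes passed 0.05 for any term. The lowest adjusted p of a member in limma was 0.297 for Clk/Clk, 0.933 for Per2m/m and 0.692 for transfection. At an unadjusted p under 0.05 in limma, 8 members were higher in Clk/Clk and 0 lower (5.65% and 3.33% of all genes), 1 was higher in Per2m/m (Ccl6; 1.07% of genes), and 1 was higher (Ccl5; 2.14%) and 2 lower (Ccl6 and Cxcl16; 2.54%) with transfection. Among the 14 members detected on all arrays, fitted with the 12389 genes so filtered, 5 were higher and 0 lower in Clk/Clk (4.83% and 5.72% of genes), 0 higher and 1 lower in Per2m/m (0.864% and 0.799%), and 1 higher and 0 lower with transfection (4.29% and 2.4%). Ccl2 had the smallest unadjusted p-value for Clk/Clk among the members, with an estimate of 2.14 ± 0.30 (log2, SE) and an adjusted p of 0.297 in limma. It was followed by Cxcl16 at 3.16 ± 0.49, Ccl11 at 6.06 ± 1.05, Cxcl1 at 3.85 ± 0.75, Cxcl5 at 5.31 ± 1.24, Cxcl10 at 5.75 ± 1.45, Ccl5 at 3.20 ± 1.06 and Cxcl9 at 1.32 ± 0.46. The estimates of Ccl11 and Cxcl9 use arrays on which the gene was dim (both wild type arrays for Ccl11, the transfected one for Cxcl9). Their size is therefore uncertain, and against a dim array only the bounds above hold. The Cxcl16 estimate rests on wild type and Clk/Clk arrays where the gene was well above background. Its SE also draws on the transfected Per2m/m array, where Cxcl16 was dim. For transfection the fit gave 2.67 ± 0.86 for Ccl5, −2.54 ± 0.46 for Ccl6 and −1.24 ± 0.40 for Cxcl16, each with the same measured sign in all 3 genotypes. However, Ccl6 was dim on both Clk/Clk arrays and the transfected wild type array, and Cxcl16 on the transfected Per2m/m array, so the size of both estimates is uncertain. A fit without the transfected Per2m/m array leaves 1 array for Per2m/m and 1 residual degree of freedom. Its counts are therefore not read here.

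Of 23 chemokine receptors, 10 were well above background on at least 1 array, against 74.9% of all named genes. Ccr1, Ccr2, Ccr4, Ccr9, Ccr10, Cxcr1, Cxcr2, Cxcr3, Cxcr5, Xcr1, Ackr1 and Ackr2 were among those well above background on none. The response was at least 2-fold higher for 1 and lower for 4 receptors of wild type cells, for 0 and 0 of Clk/Clk, and for 4 and 3 of Per2m/m, where the shares of all genes were 7.51% and 11.8%, 3.74% and 4.12%, and 18.7% and 20.8%. Cx3cr1, the receptor of Cx3cl1 on myeloid cells, was at −4.08 in wild type and −1.06 in Per2m/m mock cells and dim on the other 4 arrays, at least 2.61-fold and 11.5-fold lower in transfected cells. Cxcr4, the receptor of Cxcl12, was at −4.17 and −3.75 on the same 2 mock arrays and dim elsewhere, at least 2.39-fold and 1.79-fold lower in transfected cells. Cxcr6, which binds Cxcl16, stood at 0.53, −2.62 and −0.96 across wild type, Clk/Clk and Per2m/m mock cells and at −1.11, −1.72 and −4.00 in transfected cells. Ccr7, the receptor of Ccl19, was detected in transfected Per2m/m cells alone, at −2.86, at least 4.35-fold above the mock. Ackr3, a scavenger of Cxcl12, is named outside the fixed rule and after its values were seen, because it was highest on the array where Cxcl12 was lowest: its levels were −0.33, −1.26 and 0.71 in mock and 0.09, −0.38 and 3.10 in transfected cells.

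Genes of the 2 inducing pathways were counted in the same way, beside the 74.9% of all named genes detected on at least 1 array. Of 30 NF-kB pathway genes 29 were detected (Rel was dim), and against wild type 9 were at least 2-fold higher and 0 lower in mock Clk/Clk cells, and 6 and 0 in transfected ones, where all genes had 10.1% and 10.7%, and 13.2% and 11.1%. On transfection 4 were higher and 1 lower for wild type, 0 and 3 for Clk/Clk, and 4 and 5 for Per2m/m, beside all-gene shares of 7.51% and 11.8%, 3.74% and 4.12%, and 18.7% and 20.8%. The genes with the largest responses were Irak3, an inhibitor of interleukin-1 receptor signalling, and Birc3, a ubiquitin ligase, which were at least 7.82-fold and 5.33-fold lower in transfected than in mock Per2m/m cells, then Tnfaip3, a feedback inhibitor (1.39 and −0.90 on the mock and transfected Per2m/m arrays), and the adaptor Traf1 (−3.43 and −1.29). Of 16 interferon response genes 15 were detected and Ifnb1 itself was dim, with 5 higher and 2 lower in mock Clk/Clk cells and 4 and 0 in transfected ones, against the same all-gene shares. Irf7, a factor induced by interferon, stood at −3.67 and −4.93 in wild type mock and transfected cells, at 1.09 and 3.16 in Clk/Clk cells, and was dim in Per2m/m cells. Irf1 stood at 1.14 and 2.03 for wild type, 3.33 and 2.67 for Clk/Clk, and 1.16 and 3.37 for Per2m/m mock and transfected cells. The response across wild type, Clk/Clk and Per2m/m was higher for 0, 2 and 1 and lower for 2, 0 and 4 of these interferon genes, with the largest responses in the myeloid factors Irf8, which was lower by at least 2.34-fold and 4.95-fold in wild type and Per2m/m cells, and Irf5, at 0.60 and −2.94 in Per2m/m cells. Beside these interferon counts, the all-gene shares were 7.51%, 3.74% and 18.7% higher and 11.8%, 4.12% and 20.8% lower. In limma 4 genes of each list had an unadjusted p under 0.05, all higher, for Clk/Clk, and 0 passed the adjustment. Over all genes 5.65% were higher and 3.33% lower at that unadjusted p.

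Of 12 genes that process or present chemokines, all were detected on at least 1 array (74.9% of all named genes). On transfection 1 was at least 2-fold higher and 1 lower for wild type, 1 and 1 for Clk/Clk, and 1 and 2 for Per2m/m. The shares of all genes were 7.51% and 11.8%, 3.74% and 4.12%, and 18.7% and 20.8%. The gelatinase Mmp9, which trims several chemokines, was at −4.40 in mock wild type cells, 0.13 and 1.21 in Clk/Clk mock and transfected cells, and dim on the others. Sdc3 and Sdc4, heparan sulfate proteoglycans that hold chemokines at the cell surface, stood at 3.82 and 2.89 in mock and −0.23 and 0.11 in transfected Per2m/m cells. Pf4 and Ppbp, platelet chemokines whose names the rule does not reach, were both lower in transfected wild type and Per2m/m cells: Pf4 by at least 5.77-fold and 11.5-fold, and Ppbp from 3.05 to −1.71 and from 0.62 to −1.32.

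Macrophages make many of these ligands, and their markers differed between the same arrays. Of 15 macrophage markers, 13 were well above background on the mock wild type array, 7 on the transfected wild type, 9 and 8 on the mock and transfected Clk/Clk, 15 on the mock Per2m/m and 8 on the transfected Per2m/m array. On the same arrays 68.2%, 66.7%, 65.3%, 64.5%, 66.6% and 60.7% of all named genes were well above background. The summed linear level of the macrophage markers, as a multiple of the 75th percentile, was 47.2 and 23.9 for wild type, 61.2 and 56.7 for Clk/Clk, and 56.8 and 18.0 for Per2m/m mock and transfected cells. Most of each sum came from Itgam alone, so the sum mainly follows that gene. Itgam stood at 5.22 and 4.28, 5.77 and 5.65, and 5.26 and 3.51 (log2) on the same arrays. Tyrobp, a myeloid adaptor, was at −1.59 in mock wild type and 0.21 in mock Per2m/m cells, and dim on all other arrays. The complement gene C1qa had −3.36 and −0.70 on those 2 arrays and was dim on the others, as was C1qc. These are also the arrays on which Ccl6, Ccl17, Cxcl14, Pf4, Cx3cr1 and Cxcr4 were highest, and the part of macrophages in those values was not tested. On the Clk/Clk arrays, where Ccl2, Cxcl1, Cxcl5, Cxcl10 and Cxcl16 were highest, the integrin gene Itgam stood at 5.77 and 5.65, above the other arrays. Csf1r (1.41 and 1.56), Cd14 (1.46 and 1.20), Cd68, Fcer1g, C1qb and Lyz1 were also well above background on both. Of the Clk/Clk arrays, Cd53 and Ptprc were well above background on the mock one alone and Adgre1 on the transfected one. Tyrobp, C1qa, C1qc, Lyz2 and Laptm5 were so on neither. The part of macrophages was not tested there either. In bulk RNA, fewer cells of a type and less RNA per cell cannot be told apart. Markers of other cells were well above background on at least 1 array for 3 of 8 genes of T and NK cells, 1 of 4 of B cells, 3 of 6 of mast cells and granulocytes, 4 of 6 of endothelium, 7 of 8 of epithelium and 4 of 5 of mesothelium. The share of all named genes was 74.9%, and these counts alone do not show that a cell type was present. The summed mesothelial level was 33.5 on the transfected Per2m/m array and 2.22 to 7.79 on the others, with Msln at 5.06 and Krt19, Lrrn4 and Wt1 dim there, and its part in the responses was not tested.

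**Figure D4:**
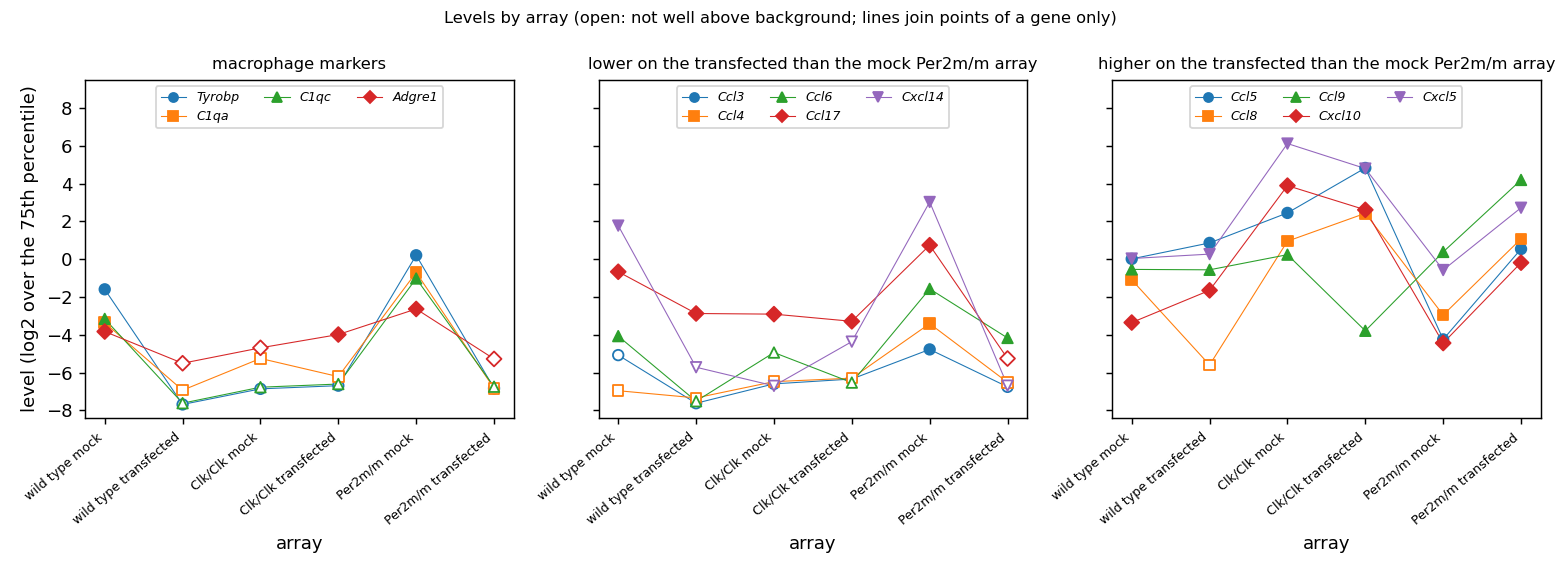
Level (log2 of the signal over the 75th percentile, y axis) on the 6 arrays (x axis) of 4 macrophage markers (left), of 5 chemokines lower on the transfected than the mock Per2m/m array (middle) and of 5 higher on it (right); open symbols are not well above background and lines only join the points of a gene. The 4 markers drawn and the middle panel's Ccl6, Ccl17 and Cxcl14 are highest on the mock Per2m/m array. Of the markers not drawn, Cd14, Cd53, Itgam and Ptprc were highest on other arrays. The right panel's genes were chosen as higher after transfection, so they could not be highest on the mock Per2m/m array.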

How the data were processed

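The deposited scanner files of the 6 arrays give a processed intensity per spot on a linear scale, extracted with Agilent Feature Extraction 10.7.1.1 per the file headers (the submitters' processing notes name 9.5.1.1). The deposited series table holds the authors' values of the same arrays as a linear signal with a median of 23.8 in each column (r with the scanner values at least 0.998), normalized by a method not given in the sources used here; it served as an alternative.

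Groups came from the sample titles. Control spots and outlier spots (85 to 125 of 59305) were left out, spots of a probe averaged, and log2 intensity taken minus the array's 75th percentile. Of 55681 probes, 27235 were named by accession, 3581 by symbol and 565 by synonym through a RefSeq gene table (GRCm38.p6), and 24300 stayed unnamed. For a gene, the probe with the highest mean level among those well above background on at least 1 array was used. Probe coordinates are those of the files (mm9).

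With 1 array per group, members were compared by fold (threshold 2), and 16718 genes were fitted with limma 3.58.1 (R 4.3.3) on genotype and transfection, with Benjamini-Hochberg adjustment. The fit was tested on simulated data. The number of arrays limits precision.

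The members, lists and tests were chosen with earlier results of these data known. Levels on all arrays are given for members at least 2-fold apart between transfected and mock cells of a genotype (17 genes) and 5 others, with arrays below background named as dim, and Ccl1 is given by range; of the receptor, NF-kB and interferon lists, the 4 largest responses are given. Alternatives covered scaling, background correction, filters, probe choice and the model. Protein sequences were not analysed here.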

Additional observations from a re-analysis of the deposited data

Results flagged for a closer look

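Among the detected chemokine genes, 7 were at least 2-fold higher on the transfected array in 1 genotype and at least 2-fold lower in another, in 9 pairs of genotypes. These differences between responses rest on 1 array per group and were not tested. Ccl8 differed by 5.98 (log2) between Clk/Clk and wild type and by 8.54 between Per2m/m and wild type, as measured, with the transfected wild type array not well above background. For Cxcl10 the difference was 2.98 between wild type and Clk/Clk and 5.53 between Per2m/m and Clk/Clk. Ccl9, Cxcl5 and Cxcl1 differed by 7.84, 4.62 and 2.59 between Per2m/m and Clk/Clk. Cx3cl1 differed by 2.49 between wild type and Clk/Clk, and Cxcl12 by 8.56 between wild type and Per2m/m. Of the 9 pairs, 6 use the transfected Per2m/m array, which correlated least with the others, and 3 (Ccl8 between Clk/Clk and wild type, Cxcl10 and Cx3cl1 between wild type and Clk/Clk) do not. Some of the calls fell under 2-fold with other processing. The wild type response of Cxcl12 was 0.89 with quantile normalization or the deposited table. That of Cxcl10 was 0.88 with normexp and 0.63 with the mean of probes. The Per2m/m response of Cxcl1 was 0.92 with normexp.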

How the results depend on the processing

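The 0 adjusted calls in limma held under each alternative fitted: for Clk/Clk the lowest adjusted p of a member ranged from 0.116 to 0.333, with 5 to 10 members at an unadjusted p under 0.05. The 5 were of 14 members, where 1308 of 12389 genes passed, and the 10 were of 35, where 2550 of 22320 genes did. By the scanner's weaker call, positive and significant against background, 32 members were detected in place of 23. With array-median scaling the wild type median response was 0.0751 and that of Per2m/m 0.505, as the median of all genes moved to 0.32 and 0.40; with quantile normalization the 3 medians, wild type first and Per2m/m last, were −0.00984, −0.183 and 0.0274, and with the deposited table −0.00973, −0.181 and 0.0282. Normexp background correction gave 3 members lower and a median of −0.35 in wild type, a median of −0.0847 in Clk/Clk, 4 lower in Per2m/m, and against wild type 3 higher in mock and 1 lower in transfected Per2m/m cells. Asking for detection on all 6 arrays left 14 members: 0 lower and a median of 0.21 in wild type, 1 higher in Clk/Clk, 1 lower and a median of 0.54 in Per2m/m, and against wild type 5 higher and 0 lower in mock Clk/Clk, 6 higher in transfected Clk/Clk, 0 higher in mock Per2m/m, and 3 higher and 1 lower in transfected Per2m/m cells. With no filter on dim probes the Clk/Clk median was 0.17, with the mean of probes the wild type median −0.38, and with dim arrays at their bound, an alternative chosen after seeing the data, −0.13. For any shift shown here the cause was not tested, except that the 14 members are fewer by construction. Leaving out Cxcl11, also added after seeing the data, changed no count. Signal over background limits the members detected on some arrays only, whose folds are bounds. The genotype terms of the fit pair the mock and transfected arrays of a genotype. Without them 0 members were higher and 1 lower with transfection at an unadjusted p under 0.05 in limma, in place of 1 and 2. Of all 16718 genes 351 were higher and 349 lower, in place of 357 and 425. The labels give no replicate numbers, so no further block was fitted.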
